A study of Mus musculus with 4 samples.

Results

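The protein kinase C and D genes considered here are Prkca, Prkcb, Prkcd, Prkce, Prkch, Prkcq, Prkcz, Prkd1, Prkd2 and Prkd3, 10 of the 18193 genes that had a probe set of their own on a mouse 3' expression array. They were chosen by gene symbol, and every probe set with exactly 1 of these symbols was kept, which gave 29 of the 45101 probe sets. RNA levels were measured in 4 libraries of BA/F3, a mouse cell line that needs interleukin 3 to grow and stands in for early B cells in many studies. Title, source name and genotype assign 2 libraries to cells positive for human ETV6-RUNX1 (TEL-AML1), made from an inducible transgene, and 2 to cells negative for it. All 4 libraries came from cells given mifepristone, the inducer, at 32.5 pM for 16 h, so the control cells carry the inducer treatment as well. The libraries are called fusion 1, fusion 2, control 1 and control 2 here, after their titles. ETV6-RUNX1 is the fusion transcription factor of a common childhood B-cell leukemia.

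The labels disagree about the replicate 1 libraries. The description field names fusion 2 and control 1 as expressing the fusion, and fusion 1 and control 2 as control, so only fusion 2 and control 2 carry the same label in every field. The main comparisons are therefore given by title and by description, always as fusion minus control on the log2 scale. Some further ones are given by description only. Whether the libraries are separate cultures, and whether each line is a single clone, is not given in the sources used here, so p-values measure only the spread between these libraries, which may be technical.

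Each library had 17517 to 17688 probe sets with a log2 value of 4 or more, and 54.7% to 54.9% of all values in a library were at most 0.5 above 2.23, the array's lowest value, called the floor here. Of 9 B lineage marker genes on the array, Cd79b was the 1 with a mean of at least 4, while Pax5, Ebf1, Vpreb1, Rag1 and Rag2 lay near the floor in every library. Cd79a, Igll1 and Blnk had lower means than 4, with highest values of 4.47, 3.22 and 2.92 in any library. All 6 T cell markers on the array lay near the floor. In bulk RNA, fewer cells of a type and less RNA per cell cannot be told apart.

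Protein kinase C enzymes are serine/threonine kinases that act downstream of phospholipase C. The conventional isoforms, among them alpha and beta, need calcium and the lipid diacylglycerol. The isoforms delta, epsilon, eta and theta need diacylglycerol only, and the atypical isoforms, such as zeta, respond to neither. Protein kinase D enzymes bind diacylglycerol too and are switched on when a protein kinase C phosphorylates them. In blood cells these kinases carry signals from antigen, Fc and cytokine receptors to adhesion, secretion and transcription.

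Of the 29 probe sets, 12 had a mean of at least 4 over the 4 libraries and entered the test, and they cover Prkca, Prkcd, Prkce, Prkd2 and Prkd3. All probe sets of Prkcb, Prkch, Prkcz and Prkd1 lay near the floor in every library, which says that these probe sets gave no signal above background and not that the genes are silent. The single probe set of Prkcq lay below the filter. Grouped by description, Prkd3, Prkce and Prkd2 had their highest values in fusion 2 and control 1, described as fusion-expressing, while Prkca and Prkcd did not separate by more than 2-fold under either label.

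Promoter sequences from RefSeq (GRCm38.p6) were available for 8 of the 10 genes, in 13 windows of 250 bases before an annotated start. Prkce and Prkch had no window, and the windows of Prkd2 overlap each other. They are shown for the protein kinase D genes that read higher by description and for a floor-level gene whose window holds a RUNX-type motif, because the DNA-binding part of the fusion comes from RUNX1. The motifs searched were TGTGGT and TGCGGT on both strands, and capitals mark a match. The windows are Prkd3 at chr17:79020817-79021066 on the minus strand, Prkd2 at chr7:16842652-16842901 on the plus strand and Prkcb at chr7:122288875-122289124 on the plus strand.
Prkd3: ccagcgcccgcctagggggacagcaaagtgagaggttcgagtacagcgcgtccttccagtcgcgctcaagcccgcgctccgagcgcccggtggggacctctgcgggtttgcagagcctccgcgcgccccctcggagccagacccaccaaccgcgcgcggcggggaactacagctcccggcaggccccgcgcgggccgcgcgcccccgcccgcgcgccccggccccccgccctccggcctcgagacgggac
Prkd2: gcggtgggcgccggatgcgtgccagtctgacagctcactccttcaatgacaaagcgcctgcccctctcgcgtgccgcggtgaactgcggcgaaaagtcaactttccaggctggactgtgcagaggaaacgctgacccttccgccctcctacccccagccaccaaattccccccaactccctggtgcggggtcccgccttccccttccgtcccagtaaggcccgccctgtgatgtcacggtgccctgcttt
Prkcb: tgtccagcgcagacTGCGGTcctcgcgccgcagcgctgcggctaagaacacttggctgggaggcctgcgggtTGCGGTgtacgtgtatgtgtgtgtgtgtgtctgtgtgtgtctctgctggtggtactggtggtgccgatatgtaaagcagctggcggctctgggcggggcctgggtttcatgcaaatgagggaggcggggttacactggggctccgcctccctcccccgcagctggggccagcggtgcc
The Prkcb window holds TGCGGT at 236 and at 178 bases before the start, both on the gene's strand. A Prkcz window at chr4:155344750-155344999 on the minus strand holds TGTGGT at 120 bases before the start and its reverse complement at 204. The other 11 windows, which include all those of Prkd2, Prkd3, Prkca and Prkcd, hold neither motif. Thus 2 of 13 windows (15.4%) had a match, against 6107 of 32851 windows of this length over all genes (18.6%). These matches describe the letters in these windows only.

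Prkd3 encodes protein kinase D3 and had the widest range over the libraries of all 29 probe sets. Its probe set 1428229_at read 6.26 in fusion 2 and 6.41 in control 1, both described as fusion-expressing, against 2.23 in fusion 1 and 2.34 in control 2. Both libraries described as control lay near the floor, and the groups did not overlap. By description the probe set averaged 6.34 ± 0.11 in fusion and 2.29 ± 0.07 in control libraries (SD, n = 2 each), a log2 difference of 4.05 (SE 0.17). By title it averaged 4.25 ± 2.85 in fusion and 4.37 ± 2.88 in control libraries (SD, n = 2 each), a difference of -0.13 (SE 2.11). The title grouping thus placed a high and a low library on each side, and with 1 library left out its difference ran from -2.17 to 1.91. Because a value at the floor is a background level, 4.05 is not a measured fold. Whether it overstates or understates the difference was not tested. Among the 17720 tested probe sets its upward difference had rank 23, in a contrast already known when the gene was chosen. The probe set reached a mean of 4 only through the libraries in which it is high, so it could enter the test only by differing.

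The other Prkd3 probe sets lay below the filter. Probe set 1428230_at read 4.61 in fusion 2 and 5.30 in control 1, against 2.55 in fusion 1 and 2.65 in control 2, a difference of 2.36 by description. Probe set 1444691_at read 3.60 in fusion 2 and 2.79 in control 1, against 2.23 in both fusion 1 and control 2, a difference of 0.96. In both, the libraries described as fusion-expressing stood above the others, as in 1428229_at. Probe set 1420567_at read 2.25 in all 4 libraries and so gave no information. These probe sets measure 1 gene in the same RNA and are not separate replicates of the pattern.

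Prkd2 encodes protein kinase D2, the isoform known for its part in antigen receptor signalling in lymphocytes. Its probe set 1434333_a_at read 8.35 in fusion 2 and 8.29 in control 1, against 7.21 in fusion 1 and 7.28 in control 2. By description this is 2.11-fold, a log2 difference of 1.08 (SE 0.17), and by title the difference was 0.00 (SE 0.61). Probe set 1434334_at read 6.32 in fusion 2 and 6.38 in control 1, against 5.04 in fusion 1 and 5.18 in control 2, a 2.36-fold difference by description. The libraries fell into the same pairs at both probe sets. Probe set 1436589_x_at, whose type can also match related sequences, read 8.37 in fusion 2 and 8.18 in control 1, against 7.06 in fusion 1 and 7.44 in control 2, or 2.03-fold. Probe set 1437509_x_at read 5.14 in fusion 2 and 4.76 in the other 3 libraries, and 1456075_at read 2.23 in all 4 and so gave no information. Of the 4 Prkd2 probe sets with signal 3 differed at least 2-fold by description, and 1437509_x_at did not. The difference of 1436589_x_at fell short of 2-fold without fusion 1 (0.83) and without fusion 2 (0.93).

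Prkce encodes protein kinase C epsilon, which needs diacylglycerol but not calcium. Probe set 1452878_at read 7.19 in fusion 2 and 7.06 in control 1, against 5.10 in fusion 1 and 5.59 in control 2. By description it averaged 7.13 ± 0.09 in fusion and 5.35 ± 0.34 in control libraries (SD, n = 2 each), which is 3.43-fold (log2 difference 1.78, SE 0.25). By title the difference was -0.18 (SE 0.96). Probe set 1437861_s_at, of a type whose probes can match transcripts of more than 1 gene, read 7.17 in fusion 2 and 7.45 in control 1, against 6.04 in fusion 1 and 6.17 in control 2, a difference of 1.20 by description (2.30-fold, SE 0.20). Both probe sets thus split the libraries by description and not by title. The remaining Prkce probe sets, 1449956_at and 1437860_at, read 2.24 and 2.23 in all 4 libraries.

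**Figure D1:**
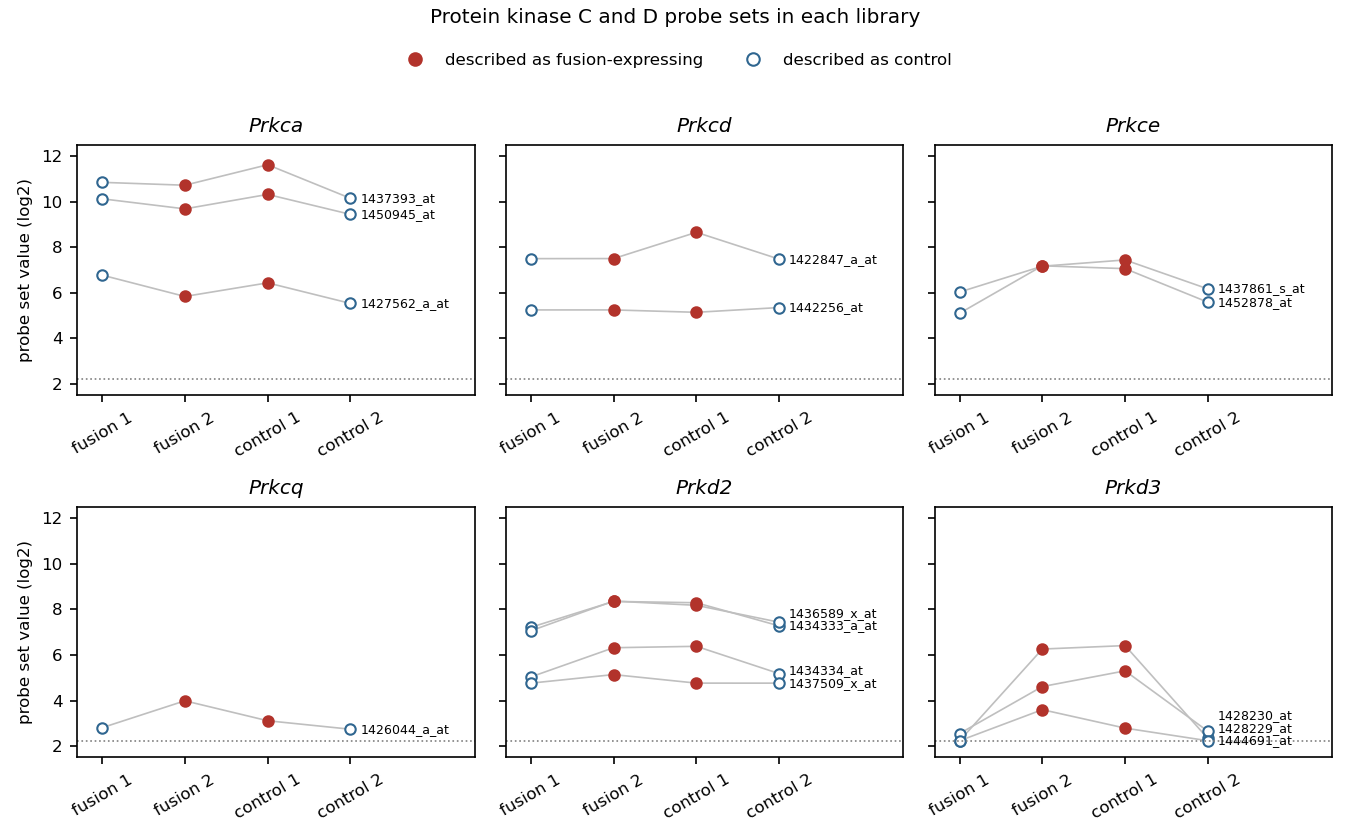
Log2 value of each probe set (y axis) in each library by title (x axis), with filled red points for libraries described as fusion-expressing and open blue points for libraries described as control; grey lines join the values of 1 probe set, the dotted line is the floor at 2.23, and probe sets with the same value in all libraries, Prkcb and Prkch are left out. Prkd3 1428229_at reads 6.26 and 6.41 in the filled libraries, against 2.23 and 2.34 in the open ones, while the Prkca probe sets show no such split.

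Prkca, which encodes the conventional isoform protein kinase C alpha, was measured by 3 tested probe sets. Of these, 1437393_at read 10.73 in fusion 2 and 11.62 in control 1, against 10.85 in fusion 1 and 10.15 in control 2, and the groups overlapped under both labels. Its difference was -0.10 (SE 0.57) by title and 0.67 (SE 0.43) by description, and that by description was 1.02 without fusion 1 and 1.12 without fusion 2. Probe set 1450945_at differed by 0.02 (SE 0.42) by title and 0.22 (SE 0.36) by description, and 1427562_a_at by 0.32 (SE 0.53) and -0.02 (SE 0.53). All 3 probe sets instead read higher in both replicate 1 libraries than in both replicate 2 libraries. At 1427562_a_at this was 6.78 in fusion 1 and 6.44 in control 1, against 5.84 in fusion 2 and 5.54 in control 2. At 1450945_at it was 10.13 in fusion 1 and 10.32 in control 1, against 9.69 in fusion 2 and 9.45 in control 2. Of all tested probe sets, 18.2% were likewise higher in both replicate 1 libraries, and the comparison was looked at after these values were seen. What the replicate numbers stand for is not given in the sources used here.

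Prkcd encodes protein kinase C delta, a calcium-independent isoform linked to apoptosis and to B cell tolerance. Probe set 1422847_a_at read 8.66 in control 1 and lay between 7.48 and 7.51 in the other 3 libraries. Its differences of -0.57 (SE 0.49) by title and 0.59 (SE 0.45) by description thus rest on 1 library, and within the replicate 2 pair it differed by 0.02. Without control 1 the differences became 0.02 by title and 0.01 by description, and without fusion 2 that by description was 1.17. Probe set 1442256_at read between 5.15 and 5.36 in all libraries, with 5.25 in both fusion 1 and fusion 2. Prkcq, which encodes the theta isoform known from T cell and mast cell receptor signalling, was measured by 1426044_a_at. It read 3.99 in fusion 2 and 3.11 in control 1, against 2.81 in fusion 1 and 2.74 in control 2. These values lie below the filter, and the excess over the other libraries was mainly in fusion 2.

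The isoforms without signal were Prkcb, Prkch, Prkcz and Prkd1, which encode the beta, eta and zeta isoforms and protein kinase D1. Their 10 probe sets read between 2.23 and 2.27 in every library. For 8 of them all 4 libraries had the identical value, so no difference between groups could be measured.

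Over the 12 tested probe sets, 10 were higher and 2 lower by description, with a median difference of 0.85, where the median over all tested probe sets was -0.01. The groups did not overlap at 8 of the 12, against 50.4% of all tested probe sets. At least 2-fold higher values without overlap were found at 6 of the 12, against 5.51% of all tested probe sets, and at least 2-fold lower values at 0, against 3.71%. The 6 are 3 probe sets of Prkd2, both tested ones of Prkce and 1 of Prkd3. Among all 29 probe sets 7 differed so, with the second Prkd3 probe set added. The 5.51% covers tested probe sets only, and no share over tested and untested ones is given for this count. Since the genes were proposed with this contrast known and several probe sets share a gene, these counts describe the genes and support nothing further.

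In limma's fit over all 17720 probe sets by description, 0 of the 12 passed an adjusted p of 0.05, against 0.0113% of all, and the lowest adjusted p among them was 0.056, at Prkd3 1428229_at. At an unadjusted p under 0.05 there were 6 of 12, against 19.7% of all. By title, 3 of the 12 were higher, 8 lower and 1 equal, with a median difference of -0.10 where that of all tested probe sets was -0.01. None of the 12 differed at least 2-fold without overlap by title, against 0.429% of all tested probe sets. No tested probe set passed by title in limma (0 of 12 and 0% of all), and an unadjusted p under 0.05 was found at 0 of the 12 and 0.282% of all.

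**Figure D2:**
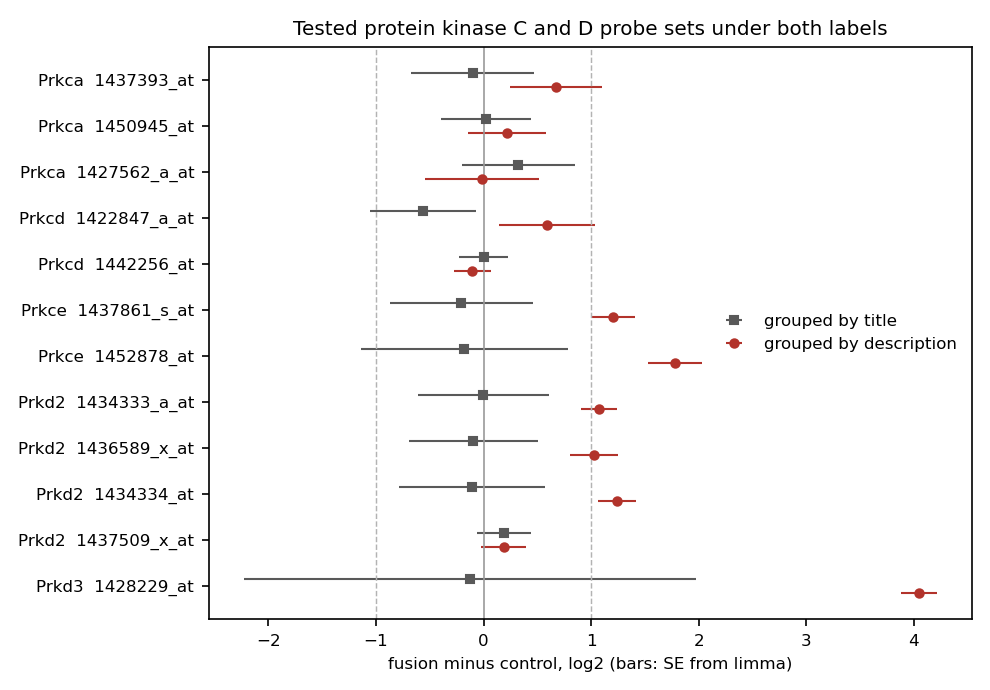
Log2 difference of fusion minus control (x axis) for the 12 tested probe sets (rows), with grey squares for the grouping by title and red circles for the grouping by description; bars are the SE from limma, and dashed lines mark 2-fold. By description 6 probe sets of Prkce, Prkd2 and Prkd3 lie above 2-fold, while by title the differences run from -0.57 to 0.32 with wider bars for those genes.

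Fusion 2 and control 2 are the pair for which every label agrees, and with 1 library each their difference has no replicate check. Between them Prkd3 1428229_at differed by 3.92, 1428230_at by 1.96 and 1444691_at by 1.36. Prkce 1452878_at differed by 1.60 and 1437861_s_at by 0.996. Prkd2 1434334_at differed by 1.14, 1434333_a_at by 1.07 and 1436589_x_at by 0.93. These kinases thus read higher in the fusion library of the pair whose labels agree, where a 2-fold or larger excess was found at 6.74% of all tested probe sets and a deficit of that size at 4.7%. Within the replicate 1 pair taken by title, the same probe sets ran the opposite way. There Prkd3 1428229_at differed by -4.18, Prkce 1452878_at by -1.96 and Prkd2 1434334_at by -1.34. Fusion 2 and control 2 are also part of the description grouping and give no separate check of it.

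Markers of other cell types and labelling controls also differed by description. Of 12 markers of mast cells, basophils and myeloid cells on the array 5 were tested and 4 were higher by description. At least 2-fold higher without overlap were 3 of the 5, against 6.41% of all tested genes. The summed log2 level of all 5 tested was 39.3 in fusion 2 and 43.4 in control 1, against 26.7 in fusion 1 and 34.2 in control 2. The 3 at least 2-fold higher are Fcer1a, the IgE receptor alpha chain, Hdc, the enzyme that makes histamine, and Ms4a2, the IgE receptor beta chain. Gata2 was higher by 0.196 (SE 0.31), with overlap. Fcer1a read 7.69 in fusion 2 and 9.91 in control 1, against 2.37 in fusion 1 and 2.32 in control 2. It reached a mean of 4 only through the libraries in which it is high, so it could enter the test only by differing. Hdc read 7.84 in fusion 2 and 8.16 in control 1, against 3.70 in fusion 1 and 5.09 in control 2. Ms4a2 read 6.89 in fusion 2 and 9.18 in control 1, against 5.59 in fusion 1 and 6.22 in control 2. Mpo, the myeloperoxidase of granulocytes and their precursors, had its highest value in control 2 and did not separate. It read 4.49 in fusion 2 and 2.86 in control 1, against 2.34 in fusion 1 and 7.996 in control 2, a difference of -1.49 (SE 2.15). The defining markers Kit, Tpsb2 and Elane lay near the floor in every library. Mcpt8, Cpa3, Itgam and Csf1r were below the filter, with highest values of 4.31, 3.73, 3.48 and 3.29 in any library.

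Of 5 megakaryocyte and erythroid markers on the array 3 were tested, and 1 was at least 2-fold lower without overlap, against 3.67% of all tested genes. This was Klf1, an erythroid transcription factor, which read 5.52 in fusion 2 and 5.93 in control 1, against 7.39 in fusion 1 and 8.80 in control 2. The other tested ones, Gata1 and Itga2b, were higher by 0.19 (SE 0.41) and 0.25 (SE 0.63), with overlap. The summed level of the 3 was 25.2 in fusion 2 and 24.6 in control 1, against 25.0 in fusion 1 and 28.6 in control 2, while Pf4 and Hba-a1 lay near the floor. Of 5 fibroblast and stromal markers 2 were tested, and 1 was at least 2-fold higher without overlap, against 6.41% of all tested genes. This was Acta2, a smooth muscle actin, which read 10.76 in fusion 2 and 10.80 in control 1, against 9.01 in fusion 1 and 9.79 in control 2. Vim, the other tested one, differed by 0.195 (SE 0.14), with overlap. The summed level of the 2 was 25.1 in fusion 2 and 24.8 in control 1, against 22.9 in fusion 1 and 23.9 in control 2, while Col1a1, Col1a2 and Col3a1 lay near the floor. By title 2 of the 11 tested markers of all types were higher and 9 lower, including all 5 of mast cells, basophils and myeloid cells. At least 2-fold apart without overlap by title were 0, against 0.0675% higher and 0.135% lower of all tested genes. None of these markers passed in limma, with a lowest adjusted p of 0.13 by description, and those named were picked with their values known.

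Spiked bacterial transcripts gave 8 pairs of 3' and 5' probe sets. By description their 3' minus 5' difference was higher without overlap at 6, lower at 1 and overlapping at 1, and by title all 8 overlapped. Of all tested probe sets, the values did not overlap at 50.4% by description and at 10.7% by title. The spikes dap, lys, phe and thr were each read by more than 1 pair, so the pairs are not separate controls. At 1 dap pair the difference was 4.43 in fusion 2 and 3.71 in control 1, against 3.10 in fusion 1 and 3.19 in control 2. The lower one, a phe pair, ran the other way, at 0.554 in fusion 2 and 0.482 in control 1, against 0.555 in fusion 1 and 0.637 in control 2. For Actb the 3' minus 5' difference overlapped, at 0.628 in fusion 2 and 0.641 in control 1, against 0.697 in fusion 1 and 0.632 in control 2. The part of these markers and of labelling in the kinase differences was not tested.

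The genes whose pattern lay closest to that of Prkd3 1428229_at over the 4 libraries, by Euclidean distance between log2 values centred on each probe set's mean, were Nlrc3 at 0.367, Itgal at 0.506, Dmd at 0.561, Gcsam at 0.641 and Slc9b1 at 0.655. Nlrc3 read 6.85 in fusion 2 and 6.75 in control 1, against 2.83 in fusion 1 and 3.19 in control 2. Itgal, the integrin alpha L chain, read 9.02 in fusion 2 and 9.53 in control 1, against 5.71 in fusion 1 and 5.50 in control 2. All 5 were high in fusion 2 and control 1, and 4 libraries are too few to tell such patterns apart.

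The remaining genes of diacylglycerol and protein kinase C signalling were taken from 7 lists by role, 80 genes in all, of which 73 were on the array and 44 had a tested probe set. By description 24 were higher and 20 lower, with a median of 0.03 where that of all 8892 tested genes was 0.01. None of the 44 passed in limma by either label, and no gene of all tested ones did at the probe set that stands for it (0%). At an unadjusted p under 0.05 there were 5 of 44 by description (11.4%), against 23.3% of all tested genes, and 0 by title, against 0.225%. None of the 44 was at least 2-fold higher or lower without overlap by description, against 6.41% and 3.67% of all tested genes, nor by title, against 0.0675% and 0.135%.

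Upstream, 6 of 14 phospholipase C genes were tested, and 4 were higher by description, with a median of 0.21. Plcg1, the enzyme that receptor tyrosine kinase pathways activate, read 8.55 in fusion 2 and 8.70 in control 1, against 7.96 in fusion 1 and 7.41 in control 2, a difference of 0.94 (SE 0.26, limma adjusted p = 0.20). Plcg2, its paralogue in B cells and mast cells, differed by -0.53 (SE 0.28), Plcb2 by 0.46 (SE 0.49) and Plcl2, a phospholipase C-like protein without catalytic activity, by 0.29 (SE 0.17). By title Plcb2 differed by 0.43 (SE 0.52) and Plcb3 by 0.22 (SE 0.28). The 2 isoforms of the gamma class thus lay on opposite sides, without passing the test.

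Diacylglycerol kinases remove the lipid that switches these kinases on, and 3 of 9 were tested. Dgkz read 12.65 in fusion 2 and 12.38 in control 1, against 11.61 in fusion 1 and 11.69 in control 2, a difference of 0.87 by description (SE 0.14, limma adjusted p = 0.14), the smallest p among the 44 genes. Dgkd differed by 0.47 (SE 0.21) and Dgka by -0.36 (SE 0.27). By title Dgka differed by -0.34 (SE 0.31) and Dgkd by 0.10 (SE 0.36). Of 9 other genes from families in which a C1 domain binds diacylglycerol, not necessarily in each member, 4 were tested, with a median of -0.17. Unc13d, which primes secretory granules, differed by 0.85 (SE 0.47), Rasgrp2, a Rap activator, by -0.28 (SE 0.24), Chn2, a chimaerin that inactivates Rac, by -0.29 (SE 0.51) and Unc13a by -0.07 (SE 0.16), and Rasgrp1, Rasgrp3, Rasgrp4 and Chn1 lay near the floor.

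Of 5 related kinases outside the 10 genes 3 were tested, all with lower averages by description. Prkci, the atypical isoform iota, read 8.99 in fusion 2 and 8.34 in control 1, against 9.09 in fusion 1 and 9.51 in control 2, a difference of -0.63 (SE 0.32). Pkn2 and Pkn3, protein kinase C-related kinases, differed by -0.38 (SE 0.19) and -0.30 (SE 0.19), and by title Pkn2 differed by 0.22 (SE 0.31) and Prkci by 0.12 (SE 0.49). None of these passed, with a lowest adjusted p of 0.37 in limma by description. Genes that prime, dephosphorylate or anchor the kinases had a median of -0.06 over 10 tested genes. Mlst8, a subunit of the mTOR complexes, differed by -0.47 (SE 0.17), Phlpp2, a phosphatase of these kinases, by -0.46 (SE 0.20), Akap13, an anchoring protein, by 0.29 (SE 0.13) and Rictor, which the complex that phosphorylates them needs, by 0.49 (SE 0.32).

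Downstream, 12 of 18 substrate genes were tested, and 9 were higher by description with a median of 0.21. Ssh1, a cofilin phosphatase that protein kinase D phosphorylates, read 8.48 in fusion 2 and 8.31 in control 1, against 7.57 in fusion 1 and 7.23 in control 2, a difference of 0.996 (SE 0.21, limma adjusted p = 0.17) that fell just short of 2-fold. Hdac5, a histone deacetylase that protein kinase D sends out of the nucleus, differed by 0.73 (SE 0.20), Add1, an adducin of the membrane skeleton, by 0.67 (SE 0.15) and Trim28, a transcriptional corepressor, by -0.28 (SE 0.24). Plek, pleckstrin, had the smallest p by title among the 44 genes and differed there by -0.73 (SE 0.30), followed in its list by Kidins220 at -0.29 (SE 0.26). Marcks and Marcksl1, classic substrates, lay near the floor in every library.

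Among partners of the atypical isoforms 6 of 10 genes were tested, with a median of 0.12. Cdc42, a small GTPase, differed by 0.48 (SE 0.30), Pard6b, a polarity protein, by 0.44 (SE 0.26), its paralogue Pard6a by 0.13 (SE 0.29) and Sqstm1, the p62 adaptor, by 0.11 (SE 0.29) by description, and by title Pard6b differed by 0.37 (SE 0.33) and Map2k5 by 0.28 (SE 0.31). No gene of this list was at least 2-fold apart.

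**Figure D3:**
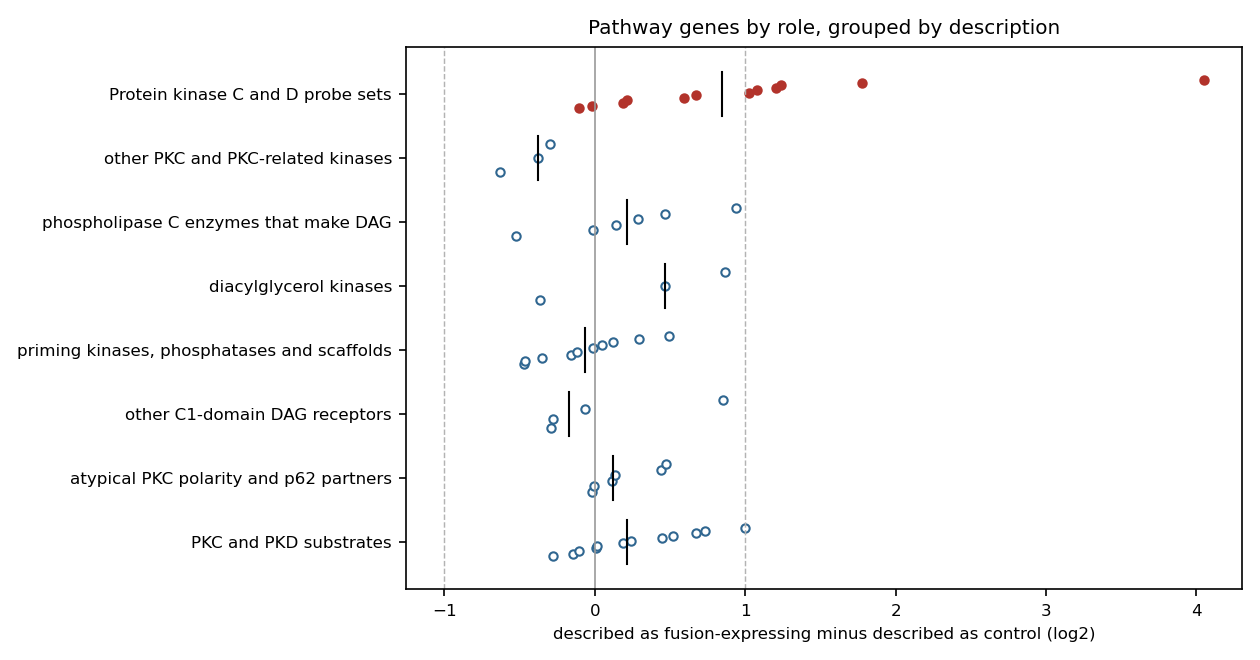
Log2 difference by description, fusion minus control (x axis), with 1 filled red point for each of the 12 tested protein kinase C and D probe sets in the top row and 1 open blue point per gene in the 7 lists below it; black bars are medians and dashed lines mark 2-fold. Points of the lists run from -0.63 to 0.996, while 6 points of the top row lie above 2-fold.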

How the data were processed

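Total RNA was labelled with a 3' in vitro transcription kit, per the labels' protocols, and the authors deposited 1 log2 value per probe set. GCRMA 2.28.0 is the tool that the submitters' processing notes name. Values between 2.23 and 16.3 identify the scale as log2, and 0 value columns were set aside. Background correction and summary press weak signals onto a floor, which compresses differences between weak signals. Arrays carry no read depth, so the 4 libraries limit the precision.

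The 64 control probe sets were left out, and 17720 probe sets with a mean of at least 4 were tested two-sided with limma 3.58.1 (R 4.3.3), using lmFit and eBayes with a mean-variance trend. P-values were adjusted by Benjamini-Hochberg across these probe sets. All 4 libraries entered each fit, without a block, which leaves 2 residual degrees of freedom. The test was also run on simulated libraries with independent noise, without a floor or exchanged labels. That check therefore does not cover these features of the data. Platform annotation named 34958 probe sets with 1 symbol, 932 with several and 9211 with none, and 0 of the several-symbol probe sets named a member. In the lists, the tested probe set with the highest mean stood for a gene, and 1 further list of pathway genes is not reported here. Members and lists were chosen with earlier results of these data known. Named were all member probe sets, from each list up to 4 genes with the smallest p by description and 2 by title, and the 5 genes nearest to the member with the widest range. Alternatives were the filter, the trend, quantile normalization, median centring, a replicate block and leaving out each library.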

Additional observations from a re-analysis of the deposited data

How the results depend on the processing

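Member probe sets at least 2-fold higher without overlap by description numbered 6 of 12. They were 7 of 29 without the filter (Prkd3 1428230_at added) and 5 of 10 with a mean of at least 5 (Prkd3 1428229_at lost). After quantile normalization and after median centring they were 5 of 12 (Prkd2 1436589_x_at lost in both). With a library left out they numbered 6 to 7. In these settings 1 group holds a single library, so groups without overlap are easier to reach. No share over all tested probe sets is given for the 2-fold counts of any alternative setting, by description, by title or for the pathway genes. These counts therefore cannot be set against a background. Without fusion 1 and without fusion 2, 5 of the 6 were shared, with Prkd2 1436589_x_at lost and Prkca 1437393_at added, and without fusion 2 Prkcd 1422847_a_at was added too. By title the count at least 2-fold apart without overlap was 0, and 0 to 2 with a library left out: 2 without fusion 2 (Prkd3 and Prkce, lower) and 2 without control 2 (Prkd3 and Prkcd, lower). Prkd3 1428229_at differed by title by 1.89 without fusion 1 and 1.91 without control 1, with overlap, and by -2.14 without fusion 2 and -2.17 without control 2. Prkd3 1428229_at passed by description after quantile normalization (limma adjusted p = 0.0449) and after median centring (0.0455), where 1 of 12 member probe sets was called, and not under the other settings that kept it. Its difference by description stayed between 3.97 and 4.13. Over all probe sets the 2 calls by description became 0 without the filter, 4 with a mean of at least 5, 14 after quantile normalization, 10 after median centring, 0 with the replicate block and 0 with any library left out. By title the count was 0 in every setting run. No pathway gene was called in any setting run, the mean of all tested probe sets per gene included, and with a library left out 1 to 3 of them were at least 2-fold higher without overlap by description (Plcg1, Plcb2, Ssh1, Hdac7, Unc13d or Dgkz). By title 2 were lower without control 2 (Hdac7 and Plek) and 1 was higher without control 1 (Plcb2). The replicate block is balanced over the groups and leaves each difference as it was. The count of 6 member probe sets by description could therefore not change with it. Deviations of same-numbered libraries from their group means correlated at 0.59 by description and -0.20 by title, and a crossed replicate block by title, chosen after seeing the data, called 0. The cause of these changes was not tested. The number of libraries, and values at the floor, limit what can be told.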
